A study of Homo sapiens with 6 samples.

Results

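The ABC transporter genes were taken as all protein-coding genes whose symbol is ABC, a subfamily letter from A to G and a number. This gave 45 of the 19951 protein-coding genes, and of 58735 genes in all: 12 in subfamily A, 9 in B, 11 in C, 4 in D, 1 in E, 3 in F and 5 in G. ABCC13 fits the symbol but is a pseudogene and was not a member. TAP1, TAP2 and CFTR belong to the same protein family under other names, and are given beside the members. The symbol rule itself used no measured value, but the members and lists were chosen with earlier results of these data known.

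The cells were HepaRG, a human liver progenitor line that forms hepatocyte-like and biliary-like cells in DMSO, sequenced as polyadenylated RNA in bulk. All 6 libraries came from cells differentiated in 1.8% DMSO for 2 weeks, transfected with siRNA for 48 h, and then kept with 800 µM of oleic and 400 µM of palmitic acid for 24 h. The study's siRNAs were directed at STAT3, a transcription factor of cytokine signalling, or PTPRD, a receptor tyrosine phosphatase. The 3 libraries labelled PTPF and the 3 labelled STATF differ in that siRNA treatment by their labels, which do not spell out the abbreviations. All 6 share the fatty acids, 1 cell line and the transfection. No library without fatty acids or with control siRNA was analysed here, so every difference is between the 2 knockdown labels.

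ABC transporters are membrane proteins that bind and split ATP to move a substrate across a membrane, most often out of the cytosol. In hepatocytes the canalicular members drive bile formation by exporting bile salts, phospholipid, cholesterol, conjugated bilirubin and drugs, and sinusoidal members return conjugates to the blood. Other members work inside the cell, in peroxisomes, mitochondria and lysosomes. Subfamilies E and F lack membrane domains and act on ribosomes.

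Total counts were 33225627 to 40796767 per library. STAT3 stood at 443.3 ± 12.2 CPM in the PTPF-labelled libraries against 119.6 ± 10.6 CPM in the STATF-labelled ones (SD, n = 3 each), where CPM is the read count scaled to library size with TMM factors. PTPRD was at 11.5 ± 1.37 and 11.5 ± 0.603 CPM (SD, n = 3 each) and so does not check the PTPF label; directions are therefore given between libraries by label. All 10 hepatocyte markers were counted, and 2 were higher and 4 lower in PTPF-labelled libraries. Their summed level ranged from 25868.6 to 29515.6 TPM (a level that also divides by gene length) in the PTPF-labelled libraries and from 27095.1 to 27922.9 TPM in STATF-labelled libraries. Of the 8 biliary markers 5 passed the filter on low counts, 1 higher and 2 lower, with EPCAM at 0 counts and sums of 266.3 to 281.5 TPM against 267.7 to 297.5 TPM. Of the tested markers 60.0% differed in the hepatocyte list and 60.0% in the biliary list. Over all genes tested 21.6% differed, and 29.5% of those with a mean of at least 5 CPM. The hepatocyte and biliary sums join opposite differences: SERPINA1 and CD24 were higher, and ALB and KRT19 lower. Mesenchymal sums were 26.3 to 30.2 against 33.4 to 36.4 TPM, endothelial 11.9 to 15.0 against 21.9 to 23.9 TPM, and immune 17.4 to 20.3 against 10.8 to 13.4 TPM. KDR made up nearly all of the endothelial sum, with means of 13.4 against 22.5 TPM. CD14 made up most of the immune sum, with means of 18.5 against 11.1 TPM. Each of these sums thus mainly follows 1 gene and is no measure of endothelial or immune cell content. In these last 3 lists 1 lower of 5 tested, 1 lower of 3 and 1 higher of 2 passed; the endothelial marker CDH5, the mesenchymal COL1A2 and the leukocyte marker PTPRC had at most 1 count in any library. The part of these markers in the differences below was not tested.

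HepaRG cells carried a wide range of ABC transcripts. Mean levels over the 6 libraries were above 50 TPM for 3 members, between 10 and 50 TPM for 16, between 1 and 10 TPM for 14, between 0.1 and 1 TPM for 7, and under 0.1 TPM for 5. The most abundant were the conjugate exporters ABCC3 (92.3 ± 8.09 against 118.6 ± 7.81 TPM; PTPF-labelled against STATF-labelled libraries, SD, n = 3 each) and ABCC2 (68.7 ± 7.26 against 89.2 ± 2.24 TPM). Next was ABCF1, a translation factor, at 62.7 ± 1.64 against 67.6 ± 2.98 TPM. ABCD3, a peroxisomal importer, followed at 36.7 ± 0.918 against 45.8 ± 0.863 TPM, and then ABCC1, a glutathione conjugate exporter, at 33.5 ± 4.37 against 36.7 ± 1.87 TPM. ABCE1, the ribosome recycling factor, and ABCB1, the multidrug pump, stood at 30.7 and 29.7 TPM over all libraries. In this order the ranges over the 6 libraries of ABCC3 and ABCC2, and of ABCC2 and ABCF1, overlapped, as did each neighbouring pair from ABCD3 down to ABCF3. ABCF1 did not overlap ABCD3, nor ABCF3 the next gene ABCB4. ABCC2 and ABCC3 together made up 24.6, 26.9 and 25.5% of the summed ABC TPM in PTPF-labelled libraries and 30.0, 29.2 and 28.8% in STATF-labelled ones. The 2 groups did not overlap in this share.

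**Figure D1:**
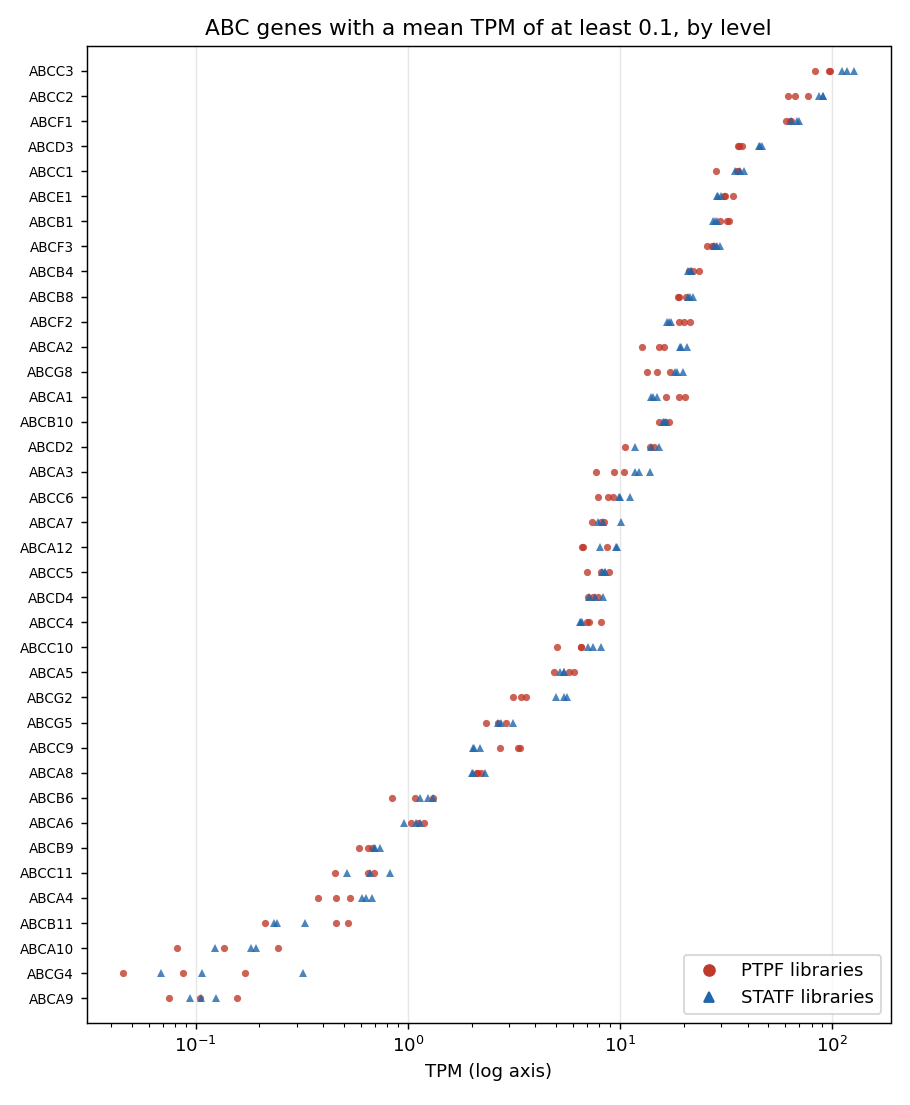
Level of 38 ABC genes with a mean of at least 0.1 TPM in the 6 libraries, in TPM on a log axis, ordered by mean (red circles, 3 PTPF-labelled libraries; blue triangles, 3 STATF-labelled libraries). ABCC3 and ABCC2 lead, with the 3 STATF-labelled libraries above the 3 PTPF-labelled ones, and ABCB11 lies at 0.213 to 0.525 TPM.

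Of the 45 members 40 passed the filter on low counts and 17 differed between the groups at an adjusted p of 0.05: 6 were higher and 11 lower in PTPF-labelled libraries. Without PTPF replicate 1 the lower members were 7. Over all 17844 genes tested, 21.6% differed, 10.1% higher and 11.6% lower. Among genes with a mean of at least 5 CPM, where counts are larger, 29.5% differed, 14.2% higher and 15.3% lower, and all 17 called members were among the 31 members at that level. The median log2 fold change (PTPF minus STATF) was -0.06 over the 40 members and 0.00 over all genes tested. With library totals as the only scaling these medians were -0.12 and -0.06. Differences were modest: 14 of the 17 were under 1.5-fold, and those past it included ABCG2, lower, and ABCC9, higher. Over all genes tested 5.32% both differed and reached 1.5-fold. In 19 members the 2 groups' CPM ranges did not overlap, 7 with PTPF-labelled libraries above and 12 below; over all genes tested 35.7% did not overlap. Summed over the 45 members, TMM-scaled CPM per kilobase of gene length were 250.7, 258.4 and 257.4 in PTPF-labelled libraries and 277.4, 277.7 and 274.2 in STATF-labelled ones, again without overlap. The share of counts from mitochondrial genes did not overlap either, at 18.2, 18.5 and 17.6% in PTPF-labelled libraries and 18.7, 19.2 and 19.5% in STATF-labelled ones, and its part in this sum was not tested. Abundant members weigh most in the ABC sum, and ABCC3 and ABCC2, the most abundant, were both lower. For the members of subfamilies E and F alone the sums overlapped, at 61.0, 56.2 and 56.3 in PTPF-labelled libraries and 54.8, 56.6 and 55.6 in STATF-labelled ones. RNA of a bulk culture cannot tell fewer cells of a type from less RNA per cell.

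By subfamily, A had 1 higher and 3 lower of 11 tested (median log2 fold change -0.04), and B had 1 higher of 8 (median -0.01). Subfamily C had 2 higher and 4 lower of 10 (median -0.14). Subfamily G had 2 lower of 3 (median -0.25). The 1 member of E was higher (0.20), and of the 3 in F 1 was higher (median -0.04). Over all genes tested 10.1% were higher and 11.6% lower. Whether subfamilies differ from each other was not tested, since members of a family are not replicates.

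**Figure D2:**
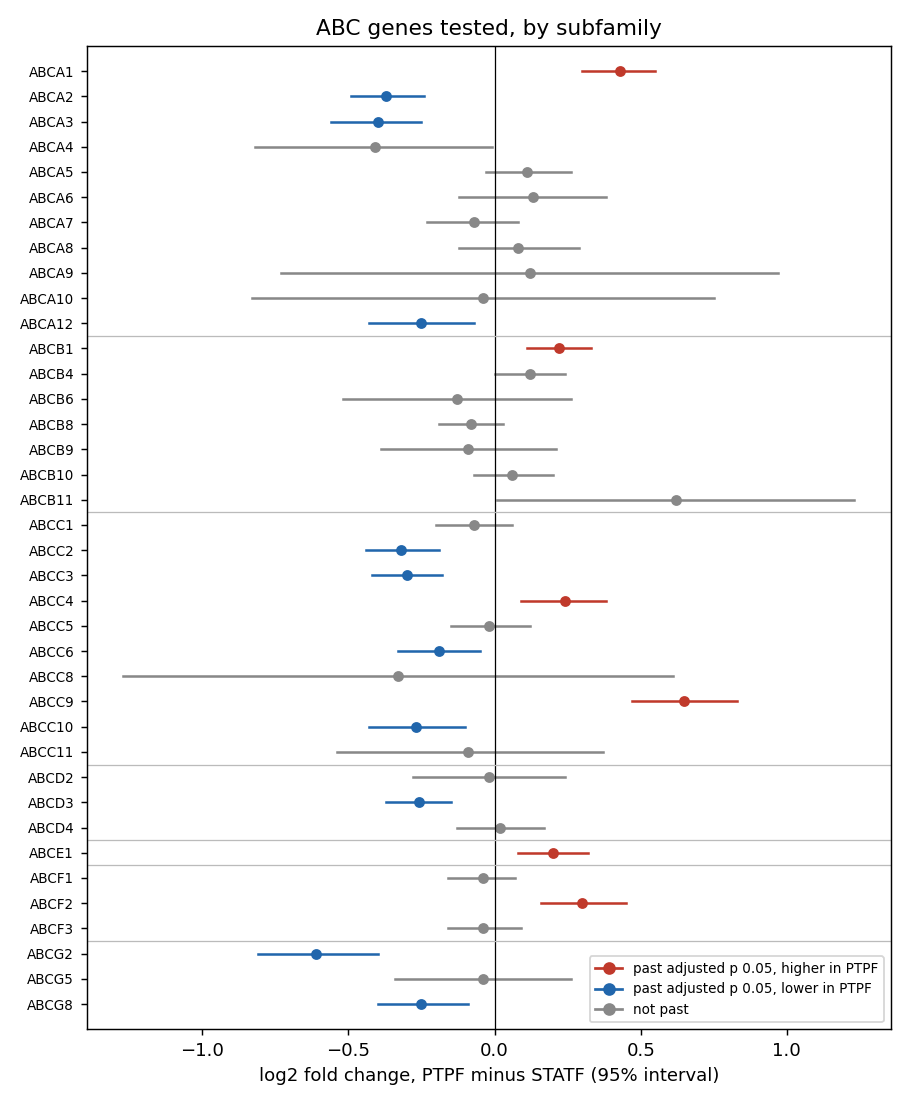
Log2 fold change (PTPF minus STATF, edgeR) of 38 of the 40 ABC genes tested, with 95% intervals, in subfamily order with grey lines between subfamilies; red and blue mark adjusted p under 0.05. The 6 higher members lie in subfamilies A, B, C, E and F, and the lower members shown in A, C, D and G.

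Of the 13 export pumps of the canalicular and sinusoidal membranes 8 differed, 3 higher and 5 lower. That is 61.5%, against 21.6% of all genes tested and 29.5% of those with a mean of at least 5 CPM. Without STATF replicate 1 this count of 8 was 5. Among the 7 canalicular pumps 3 were lower, ABCC2, ABCG2 and ABCG8, and 1 higher, ABCB1, with a median log2 fold change of -0.04. ABCC2 (ENSG00000023839) exports bilirubin glucuronides and other conjugates into bile, and lies on chromosome 10 from 99782640 to 99852594 (GRCh38, plus strand). It stood at 207.0, 239.7 and 211.1 CPM in the PTPF-labelled libraries against 271.6, 277.2 and 270.6 CPM in the STATF-labelled ones. Every PTPF-labelled library was below every STATF-labelled one, with a log2 fold change of -0.32 (SE 0.059, adjusted p = 0.000217). ABCG2 (ENSG00000118777), which exports urate, sulphate conjugates and many drugs, lies on chromosome 4 from 88090264 to 88231322 (minus strand) and was at 6.71, 7.22 and 6.89 CPM in the PTPF-labelled libraries against 10.9, 9.87 and 11 CPM in the STATF-labelled ones. The groups were far apart for its spread, at 6.94 ± 0.261 against 10.6 ± 0.62 CPM (SD, n = 3 each), with a log2 fold change of -0.61 (SE 0.099, adjusted p = 3.73e-05), or 1.52-fold lower in PTPF-labelled libraries.

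The bases upstream of the RefSeq start sites of both genes (GRCh38.p14) are shown because these are the canalicular pumps that were lower in PTPF-labelled libraries under all 14 alternatives, and they hold no annotated exon. The letters TATAAA, searched as the TATA box motif on either strand, are in capitals. In ABCC2 they lie near the end of the stretch farthest from the start and are only a match of letters. ABCG2's stretch held none of the motifs searched. ABCC2 is at chr10:99782390-99782639 on the plus strand and ABCG2 at chr4:88231627-88231876 on the minus strand.
ABCC2: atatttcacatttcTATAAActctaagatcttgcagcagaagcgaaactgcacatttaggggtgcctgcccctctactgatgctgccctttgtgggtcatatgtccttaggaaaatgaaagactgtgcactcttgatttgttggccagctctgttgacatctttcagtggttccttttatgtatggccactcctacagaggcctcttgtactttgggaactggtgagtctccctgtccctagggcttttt
ABCG2: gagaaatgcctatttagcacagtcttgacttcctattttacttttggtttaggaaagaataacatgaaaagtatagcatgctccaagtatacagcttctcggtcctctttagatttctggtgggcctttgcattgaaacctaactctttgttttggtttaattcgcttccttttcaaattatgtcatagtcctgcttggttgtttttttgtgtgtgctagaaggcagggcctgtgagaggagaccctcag

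ABCB1 (ENSG00000085563), the multidrug pump P-glycoprotein, was the canalicular member that was higher. It lies on chromosome 7 from 87503633 to 87713323 (minus strand) and was at 73.2, 75.3 and 74 CPM in the PTPF-labelled libraries against 62.4, 65.3 and 63.4 CPM in the STATF-labelled ones, and the 3 PTPF-labelled values lay above the others with little spread. Its log2 fold change of 0.22 (SE 0.054, adjusted p = 0.00381) is a difference of 1.16-fold. ABCB4, the phosphatidylcholine floppase of bile, lies next to it on chromosome 7, 23197 bases away on the same strand, and was at 72.3, 65.4 and 73.2 CPM in the PTPF-labelled libraries against 63.9, 65.5 and 64.3 CPM in the STATF-labelled ones. PTPF replicate 2 lay within the STATF range and ABCB4 did not pass, with a log2 fold change of 0.12 (95% interval 0.00 to 0.24, adjusted p = 0.143); without that library it was 0.18 (adjusted p = 0.029). The 2 genes shared 0.384% of ABCB1's and 0.284% of ABCB4's 100-base transcript windows. Per length, the ratio of ABCB1 to ABCB4 was 1.35, 1.53 and 1.35 in the PTPF-labelled libraries against 1.30, 1.33 and 1.31 in the STATF-labelled ones.

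ABCB11, the bile salt export pump, was scarce, with 23 to 53 counts per library, and stood at 0.698, 1.42 and 1.62 CPM in the PTPF-labelled libraries against 0.693, 0.985 and 0.748 CPM in the STATF-labelled ones. PTPF replicates 2 and 3 were above all STATF-labelled libraries and PTPF replicate 1 was among them. The log2 fold change of 0.62 had a 95% interval from 0.01 to 1.23 and an adjusted p of 0.151. Without PTPF replicate 1 it was 0.90 (adjusted p = 0.0183), so that 1 library decided the call.

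ABCG5 and ABCG8 encode the 2 subunits of the sterol exporter and are transcribed away from each other on chromosome 2, ABCG5 from 43812472 to 43838865 on the minus strand and ABCG8 from 43831942 to 43882987 on the plus strand. Of the 250 bases upstream of either RefSeq start, the 98 that hold no annotated exon are the same stretch. It lies inside the annotated span of ABCG8 but in no annotated exon. The stretch is shown because 1 sequence lies before the RefSeq starts of both genes. It is given as read on ABCG8's strand, chr2:43838866-43838963, and held none of the motifs searched.
ABCG8 and ABCG5: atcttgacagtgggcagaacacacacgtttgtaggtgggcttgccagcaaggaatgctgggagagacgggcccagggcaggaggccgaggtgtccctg
ABCG8 stood at 64.1, 54.4 and 70.8 CPM in the PTPF-labelled libraries against 77.3, 72 and 75.1 CPM in the STATF-labelled ones, and no PTPF-labelled value reached the lowest STATF-labelled one. Its log2 fold change of -0.25 (SE 0.073, adjusted p = 0.0181) was lost without PTPF replicate 1 (adjusted p = 0.123), PTPF replicate 2 (0.111), STATF replicate 1 (0.0865) or STATF replicate 3 (0.0642). ABCG5, with 127 to 173 counts per library, was at 4.61, 3.46 and 3.98 CPM in the PTPF-labelled libraries against 3.92, 3.84 and 4.62 CPM in the STATF-labelled ones. The groups overlapped, and the log2 fold change of -0.04 had a 95% interval from -0.34 to 0.26, a range that includes ABCG8's value. Per length, ABCG8 exceeded ABCG5 5.08, 5.74 and 6.49 times in the PTPF-labelled libraries against 7.21, 6.84 and 5.93 times in the STATF-labelled ones, so that the ratios overlapped. The gene models overlap in 3.68% of ABCG5's exon bases and 1.34% of ABCG8's.

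Of the 6 sinusoidal exporters 2 were higher, ABCA1 and ABCC4, and 2 lower, ABCC3 and ABCC6, with a median log2 fold change of -0.05. ABCC3 (ENSG00000108846), which returns glucuronides and bile salts to blood, lies on chromosome 17 from 50634777 to 50692252 (plus strand) and was at 338.0, 373.8 and 371.7 CPM in the PTPF-labelled libraries against 467.6, 440.8 and 426.4 CPM in the STATF-labelled ones. All 3 PTPF-labelled libraries lay below, with a log2 fold change of -0.30 (SE 0.059, adjusted p = 0.000388), or 1.23-fold. Per length the ratio of ABCC2 to ABCC3 stayed within 0.697 to 0.787 in the PTPF-labelled and 0.712 to 0.779 in the STATF-labelled libraries, and these ranges overlapped. ABCA1 (ENSG00000165029), which loads cholesterol and phospholipid on apolipoprotein A-I, lies on chromosome 9 from 104781002 to 104928237 (minus strand) and stood at 78.9, 85.8 and 92.5 CPM in the PTPF-labelled libraries against 61, 63.3 and 67.2 CPM in the STATF-labelled ones. It was 1.34-fold higher in PTPF-labelled libraries, with a log2 fold change of 0.43 (SE 0.061, adjusted p = 6.86e-06).

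ABCC4, which exports cyclic nucleotides and bile salts, was at 26.1, 27.9 and 24.1 CPM in the PTPF-labelled libraries against 21.9, 22.2 and 22.3 CPM in the STATF-labelled ones. Its log2 fold change of 0.24 (SE 0.07, adjusted p = 0.0158) did not pass with library totals as scaling (0.0943), nor without PTPF replicate 2 (0.0806), STATF replicate 1 (0.0596) or STATF replicate 2 (0.0511). ABCC6, an exporter needed for pyrophosphate release from hepatocytes, stood at 25.4, 26.6 and 28.2 CPM in the PTPF-labelled libraries against 32.3, 29.2 and 30.1 CPM in the STATF-labelled ones. It was lower with a log2 fold change of -0.19 (SE 0.068, adjusted p = 0.0435), and 12.8% of its 100-base windows also occur in the pseudogenes ABCC6P1 and ABCC6P2, so its value is uncertain. That call was lost with DESeq2 (0.0667), limma-voom (0.0508), no filter (0.0507) and upper-quartile scaling (0.0565). It was also lost without PTPF replicate 1 (0.119), PTPF replicate 2 (0.0899), STATF replicate 1 (0.218), STATF replicate 2 (0.0547) or STATF replicate 3 (0.0837).

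The remaining sinusoidal members did not pass. ABCC1 was at 91.3, 109.5 and 108.6 CPM in the PTPF-labelled libraries against 111.5, 109.3 and 104.6 CPM in the STATF-labelled ones, where PTPF replicate 1 was the lowest, and its log2 fold change of -0.07 had a 95% interval from -0.20 to 0.06. Its neighbour ABCC6 lies 5853 bases beyond its end, on the other strand. ABCC5, a cyclic nucleotide exporter, was at 33.9, 40.4 and 37.5 CPM in the PTPF-labelled libraries against 37.5, 38.1 and 37.7 CPM in the STATF-labelled ones, with a log2 fold change of -0.02 and a 95% interval from -0.15 to 0.12.

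**Figure D3:**
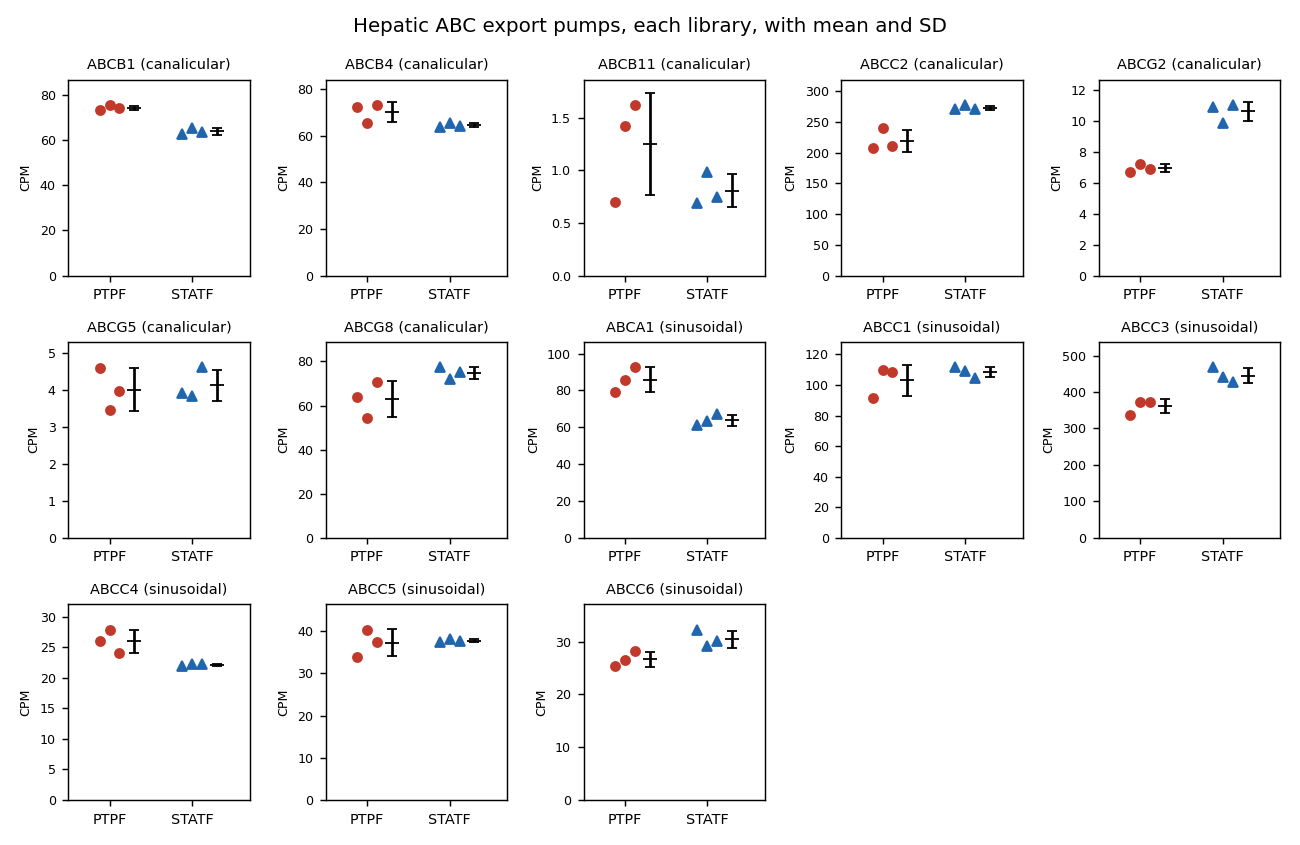
Level in each library of the 7 canalicular and 6 sinusoidal ABC exporters, in TMM-scaled CPM (red circles, PTPF; blue triangles, STATF; black, mean and SD of 3 libraries; each axis starts at 0). ABCG2 shows no overlap, at 6.71 to 7.22 against 9.87 to 11 CPM, while ABCB11 and ABCG5 overlap.

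Genes that work beside the pumps were read from the same fit. Of 9 uptake carriers, exporters and flippase genes 8 were tested, and 1 was higher and 2 lower. That is 37.5% called, against 21.6% of all genes tested and 29.5% of those with a mean of at least 5 CPM. The bile salt importer SLC10A1 stood at 4.34 ± 1.26 against 11.8 ± 1.45 CPM (SD, n = 3 each), a log2 fold change of -1.45 (SE 0.17, adjusted p = 2.93e-05). The anion carrier SLCO1B1 had a log2 fold change of -0.64 (SE 0.11, adjusted p = 8.51e-05). TMEM30A, the partner of P4-type flippases, had a log2 fold change of 0.30 (SE 0.055, adjusted p = 0.000163). Among 12 scaffold and traffic genes of the apical membrane 1 was higher and 3 lower (33.3% called). The scaffold PDZK1 stood at 52.8 ± 5.76 against 77.3 ± 4.35 CPM (SD, n = 3 each) (-0.55, adjusted p = 9.15e-07), and the membrane linker ezrin (EZR) had a log2 fold change of -0.26 (SE 0.055, adjusted p = 0.000804). SLC9A3R1, another PDZ scaffold, was higher, with a log2 fold change of 0.24 (SE 0.055, adjusted p = 0.00173).

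Regulators known to control these transporters had 1 higher and 3 lower of 17 tested. That is 23.5%, near the 21.6% over all genes tested and under the 29.5% among genes with a mean of at least 5 CPM. The bile acid receptor NR1H4 was at 44.9 ± 2.76 against 31.8 ± 1.71 CPM (SD, n = 3 each) and higher, with a log2 fold change of 0.50 (SE 0.065, adjusted p = 1.38e-06). The xenobiotic receptor NR1I2 was lower, with a log2 fold change of -0.26 (SE 0.065, adjusted p = 0.00401), as were the lysosomal regulator TFEB (-0.36, adjusted p = 0.00513) and the fatty acid receptor PPARA (-0.22, adjusted p = 0.0311). The sterol receptors NR1H2 (0.11, adjusted p = 0.248) and NR1H3 (0.17, adjusted p = 0.0995) did not pass. NR0B2, a target of the bile acid receptor, was near the floor and was not tested. It had 1, 3 and 4 counts in the PTPF-labelled libraries against 13, 6 and 20 in the STATF-labelled ones, the opposite direction to NR1H4.

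**Figure D4:**
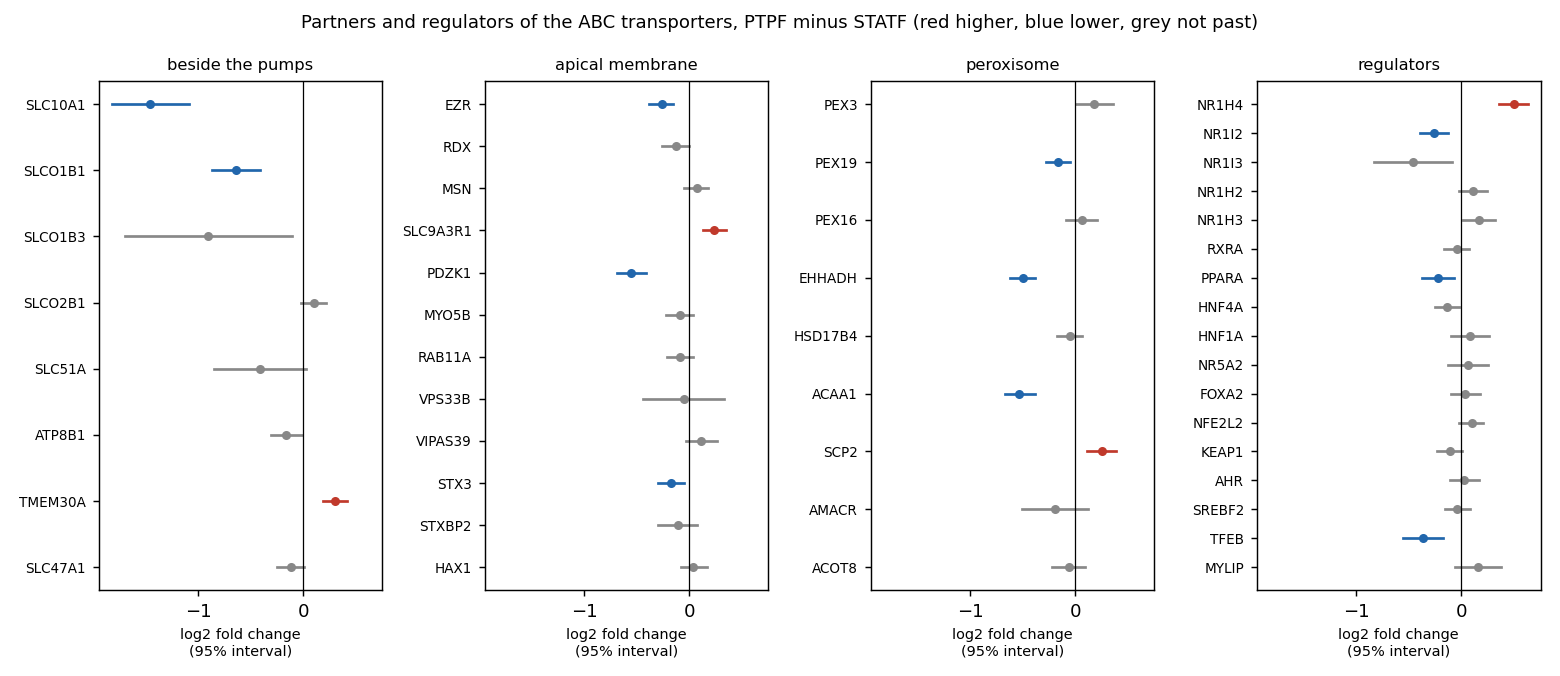
Log2 fold change (PTPF minus STATF, edgeR) with 95% intervals of tested partner and regulator genes, in 4 lists; red and blue mark adjusted p under 0.05. SLC10A1 (-1.45) and SLCO1B1 (-0.64) are lower and NR1H4 (0.50) higher.

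Peroxisomal ABC proteins import activated fatty acids and pair up to do so. ABCD3, which takes up branched-chain fatty acids and bile acid precursors, was at 115.7, 110.4 and 114.7 CPM in the PTPF-labelled libraries against 131.2, 134.8 and 141.4 CPM in the STATF-labelled ones. All 3 PTPF-labelled libraries lay below the others, and ABCD3 was lower by 1.20-fold with a log2 fold change of -0.26 (SE 0.054, adjusted p = 0.000799). ABCD2, an importer of very long-chain fatty acids, stood at 28, 34.6 and 36.1 CPM in the PTPF-labelled libraries against 28.2, 37.1 and 34.8 CPM in the STATF-labelled ones, where the groups overlapped throughout. Its interval ran from -0.28 to 0.24 around a log2 fold change of -0.02.

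ABCD3's upstream bases, chr1:94418139-94418388 on the plus strand (GRCh38.p14), are shown as the GC-rich counterpart of the ABCC2 and ABCG2 stretches above, in a gene with the same direction of difference. GC boxes (GGGCGG, either strand) are in capitals.
ABCD3: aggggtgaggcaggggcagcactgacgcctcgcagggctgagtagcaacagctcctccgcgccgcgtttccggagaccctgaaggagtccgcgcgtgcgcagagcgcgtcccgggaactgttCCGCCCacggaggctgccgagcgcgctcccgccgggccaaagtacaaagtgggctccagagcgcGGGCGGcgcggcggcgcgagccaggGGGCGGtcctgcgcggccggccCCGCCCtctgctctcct
Of the 250 bases 74.4% were G or C, against 45.6% for ABCC2 and 40.0% for ABCG2. A single start per gene was used, so stretches before any other start of these genes were not compared.

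Of 10 peroxisomal partners 1 was higher and 4 lower. The lower share was 40.0%, against 11.6% of all genes tested and 15.3% of those with a mean of at least 5 CPM. Higher genes were 10.1% of all genes tested and 14.2% of those with that mean. The enzymes that oxidise the imported acyl groups included EHHADH (-0.50, adjusted p = 3.31e-07) and ACAA1 (-0.53, adjusted p = 7.54e-06), both lower. The level of ACAA1 was 237.7 ± 27.9 against 342.2 ± 17.7 CPM (SD, n = 3 each). ABCD4, a lysosomal member needed for vitamin B12 release, was at 26.8 ± 2.26 against 26.4 ± 1.54 CPM (SD, n = 3 each), with a log2 fold change of 0.02 (95% interval -0.13 to 0.17), and ABCB9, a lysosomal peptide transporter, had -0.09 (95% interval -0.39 to 0.21).

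The mitochondrial members ABCB8, ABCB10 and ABCB6 did not pass in edgeR, DESeq2 or limma-voom, and 0 of these 3 had an unadjusted edgeR p under 0.05. ABCB8 stood at 74.1, 76.4 and 70.8 CPM in the PTPF-labelled libraries against 76.2, 80 and 77.9 CPM in the STATF-labelled ones, with a log2 fold change of -0.08 (95% interval -0.19 to 0.03). ABCB10 was at 28.1 ± 0.808 against 26.9 ± 0.252 CPM (SD, n = 3 each) with 0.06 (95% interval -0.07 to 0.20). ABCB6, a porphyrin transporter, had only 65 to 112 counts and -0.13 (95% interval -0.52 to 0.26). An overlapping gene on its strand shares 54.7% of ABCB6's exon bases, so its level is uncertain. Of 12 haem and iron-sulphur genes 1 was higher, the iron importer SLC25A37 (0.28, adjusted p = 0.000909), and 1 lower, the cysteine desulphurase NFS1 (-0.21, adjusted p = 0.0158). The called share of this list was 16.7%, against 21.6% of all genes tested. The NFS1 call was lost without PTPF replicate 2 (adjusted p = 0.0715), PTPF replicate 3 (0.0615), STATF replicate 1 (0.0769) or STATF replicate 2 (0.0833).

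A list of 13 lipid-handling members, 11 of subfamily A with ABCG1 and ABCG4, left out the retinal transporter ABCA4 and the canalicular ABCG5 and ABCG8 described above. Of these 13 members 10 were tested, of which 1 was higher and 3 lower (median log2 fold change 0.02). The called share was 40.0%, against 21.6% of all genes tested and 29.5% of those with a mean of at least 5 CPM. Against ABCA1, which was higher, the endolysosomal lipid transporters ABCA2 and ABCA3 were lower. ABCA2 stood at 61.9, 70.6 and 74.7 CPM in the PTPF-labelled libraries against 91.7, 87.6 and 87.7 CPM in the STATF-labelled ones, a log2 fold change of -0.37 (SE 0.062, adjusted p = 6.25e-05). ABCA3, known for surfactant lipid in lung, was at 25.6, 29.2 and 32.7 CPM in the PTPF-labelled libraries against 41.5, 37.5 and 36.7 CPM in the STATF-labelled ones, a log2 fold change of -0.40 (SE 0.076, adjusted p = 0.0003). No STATF-labelled value of either gene fell within the PTPF range. Per length, the ratio of ABCA1 to ABCA2 was 1.29, 1.23 and 1.26 in the PTPF-labelled libraries against 0.675, 0.733 and 0.777 in the STATF-labelled ones, so that ABCA1 was the more abundant in PTPF-labelled libraries and ABCA2 in the others. ABCA12, a ceramide transporter of skin, was at 26.5, 32.6 and 25.3 CPM in the PTPF-labelled libraries against 34.6, 35.8 and 30.3 CPM in the STATF-labelled ones, where the groups overlapped. Its log2 fold change of -0.25 (SE 0.086, adjusted p = 0.0394) was lost without PTPF replicate 1 (adjusted p = 0.181), PTPF replicate 3 (0.178), STATF replicate 1 (0.133) or STATF replicate 2 (0.16).

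The 5 genes ABCA8, ABCA9, ABCA6, ABCA10 and ABCA5 lie side by side on the minus strand of chromosome 17, from 68867292 to 69327244, and none of them passed in edgeR, DESeq2 or limma-voom, with 0 at an unadjusted edgeR p under 0.05. Their log2 fold changes ran from -0.04 (ABCA10) to 0.13 (ABCA6). ABCA5 was the most abundant, at 29.9 ± 2.47 against 27.7 ± 1.2 CPM (SD, n = 3 each), and ABCA9 and ABCA10 had only 9 to 30 counts per library. ABCA7, a phospholipid transporter, had -0.07 (95% interval -0.23 to 0.08), and ABCA4, the retinal transporter, -0.41 (95% interval -0.82 to -0.01, adjusted p = 0.15). ABCG1 and ABCG4, which pass cholesterol to lipoproteins, had 0 to 8 and 4 to 29 counts per library and fell under the filter. Among partners of cholesterol efflux 1 of 8 tested was higher, the endosomal cholesterol transporter NPC1 (0.32, adjusted p = 0.000177), and 1 lower, the acceptor APOA1 (-0.25, adjusted p = 0.0324). The called share of these partners was 25.0%, near the 21.6% of all genes tested. The APOA1 call was lost with DESeq2 (adjusted p = 0.162) and without PTPF replicate 2 (0.155), PTPF replicate 3 (0.0668), STATF replicate 1 (0.103) or STATF replicate 3 (0.172).

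ABCC9 (ENSG00000069431), the SUR2 subunit of ATP-sensitive potassium channels, had the largest increase among the members that passed. It lies on chromosome 12 from 21797401 to 21942529 (minus strand) and was at 13.4, 15.7 and 15.4 CPM in the PTPF-labelled libraries against 9.12, 9.89 and 9.35 CPM in the STATF-labelled ones. The groups were apart by several times their spread, at 14.8 ± 1.22 against 9.45 ± 0.398 CPM (SD, n = 3 each), a 1.57-fold difference with a log2 fold change of 0.65 (SE 0.089, adjusted p = 2.93e-06). Its upstream bases, chr12:21941427-21941676 on the minus strand (GRCh38.p14), are shown as those of the member with the largest called increase, with a GC box in capitals. They lie inside the annotated span of the gene but in no annotated exon.
ABCC9: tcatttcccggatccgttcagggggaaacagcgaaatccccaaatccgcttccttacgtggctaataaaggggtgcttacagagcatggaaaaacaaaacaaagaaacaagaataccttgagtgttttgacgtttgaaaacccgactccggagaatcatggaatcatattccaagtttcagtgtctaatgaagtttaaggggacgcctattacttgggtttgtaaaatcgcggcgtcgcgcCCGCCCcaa
The SUR1 subunit ABCC8 had only 4 to 18 counts per library. The pore subunit KCNJ8, which pairs with SUR2, was at 3.72 ± 0.278 against 2.87 ± 0.194 CPM (SD, n = 3 each), a log2 fold change of 0.37 (SE 0.15, adjusted p = 0.0808), which did not pass, and KCNJ11 had -0.17 (adjusted p = 0.439).

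ABCC10, a lipophilic drug exporter, was at 17.2, 21 and 21.2 CPM in the PTPF-labelled libraries against 23.1, 25.6 and 22.8 CPM in the STATF-labelled ones. It was lower in every PTPF-labelled library, with a log2 fold change of -0.27 (SE 0.081, adjusted p = 0.018), a call lost without PTPF replicate 1 (adjusted p = 0.107) or STATF replicate 2 (0.128). ABCC11, an exporter known from apocrine glands, had 43 to 89 counts and a log2 fold change of -0.09 (95% interval -0.54 to 0.37). Next to it ABCC12 had 0 counts in all 6 libraries, which allows up to 0.0735 to 0.0903 CPM per library. ABCA13 and ABCB5 had at most 7 and 3 counts.

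Of the 4 soluble members 2 were higher, ABCE1 and ABCF2. ABCE1 stood at 82.4, 85.5 and 78.6 CPM in the PTPF-labelled libraries against 68.9, 70.6 and 75.1 CPM in the STATF-labelled ones, and the groups did not overlap. Its log2 fold change of 0.20 (SE 0.057, adjusted p = 0.0109) did not pass with library totals as scaling (0.0885), nor without STATF replicate 1 (0.0817) or STATF replicate 2 (0.0629), and 11.9% of its exon bases are shared with antisense genes. ABCF2 was at 37.7, 33.5 and 31.6 CPM in the PTPF-labelled libraries against 27.2, 27 and 29.2 CPM in the STATF-labelled ones, a log2 fold change of 0.30 (SE 0.07, adjusted p = 0.00199). An overlapping gene on its strand shares 45.8% of its exon bases, so its level is uncertain. ABCF1 stood at 122.6, 109.9 and 114.7 CPM in the PTPF-labelled libraries against 118.8, 123.5 and 115.8 CPM in the STATF-labelled ones, with a log2 fold change of -0.04 (95% interval -0.16 to 0.07), and the groups overlapped. ABCF3 was at 61.2, 53.5 and 56.5 CPM in the PTPF-labelled libraries against 57.5, 60.2 and 57.6 CPM in the STATF-labelled ones, with -0.04 (95% interval -0.16 to 0.09). Of 8 partners in initiation and ribosome recycling 3 were higher: RPS6 (0.28, adjusted p = 0.00125), EIF2S1 (0.23, adjusted p = 0.00468) and EIF2S2 (0.17, adjusted p = 0.0289). That is 37.5%, against 10.1% of all genes tested and 14.2% of those with a mean of at least 5 CPM. EIF2S2 lost its call with library totals (adjusted p = 0.171) and no filter (0.0567), and without PTPF replicate 1 (0.0851) or STATF replicate 1 (0.0995), 2 (0.104) or 3 (0.0763).

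TAP1 and TAP2, the peptide transporter of antigen presentation, are members of the B subfamily by protein family and differed more than any gene selected by symbol. TAP1 stood at 111.2, 103.8 and 109.0 CPM in the PTPF-labelled libraries against 319.8, 315.0 and 335.1 CPM in the STATF-labelled ones, a log2 fold change of -1.58 (SE 0.056, adjusted p = 1.12e-17). TAP2 was at 35, 37.9 and 33.8 CPM in the PTPF-labelled libraries against 73.2, 71.5 and 79 CPM in the STATF-labelled ones, a log2 fold change of -1.07 (SE 0.062, adjusted p = 3.64e-13). Both were lower in every PTPF-labelled library. CFTR, the chloride channel of bile ducts, had at most 2 counts in any library and was not tested.

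Upstream sequence was found in RefSeq for 35 of the 45 members, 9 of the 11 lower and all 6 higher ones. In the 250 bases before the start, a GC box (GGGCGG) was present on either strand in 18 of 35 (51.4%), against 42.3% of 27305 promoters of the same length; 3 of 9 lower and 3 of 6 higher members had one. The STAT palindrome TTCNNNGAA was in 1 member, ABCC5 (2.86%), against 6.78% of all promoters, and in none of the lower or higher members. CCAAT was in 17.1% against 33% and TATAAA in 14.3% against 11.1%. The perfect IR1 element, an inverted repeat read by the bile acid receptor, was in no member and in 0.00732% of all promoters. These letters are a description of short windows and not of binding.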

How the data were processed

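Polyadenylated RNA of 6 HepaRG libraries was measured, grouped by title into PTPF (n = 3) and STATF (n = 3). The authors deposited raw read counts per gene in 1 table, made with CASAVA 1.8, HISAT2 2.0.5 and featureCounts 1.5.0-p3 on GRCh38, per the submitters' processing notes. For strand and multi-mapping reads, the counting settings were not given in the sources used here. TPM was computed from the deposited gene length (another unit, bases), which the authors listed beside the counts without saying how it was made. No label says that the replicates came from separate cultures, and p-values therefore reflect only library-to-library spread, possibly technical.

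Genes kept by filterByExpr were scaled by TMM and tested over the whole table with edgeR 4.0.16's quasi-likelihood test (robust, group only, R 4.3.3) with Benjamini-Hochberg adjustment over all genes tested and a threshold of 0.05. Levels of a gene are in TMM-scaled CPM; levels of different genes are compared in TPM only. Total counts were 33225627 to 40796767, and a count of 0 allows 3 counts. Such floors hold for counting error alone, because PCR copies are not independent molecules. All 45 members had the same position in GENCODE 29, from whose exons and transcripts (100-base windows) shared sequence was computed. Upstream sequences are RefSeq's (GRCh38.p14). The stretches shown are cut to the bases before the start that hold no GENCODE exon. Motif counts and GC percentages over members and promoters used all 250 bases, with any exon bases among them. The script was tested on simulated data.

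The members and lists were chosen with earlier results of these data known. Values in every library are given for export pumps, members past the threshold and the 2 most abundant per length of each subfamily; other lists name up to 3 genes past the threshold. Other genes named (KCNJ8, KCNJ11, NR1H2, NR1H3, NR0B2, PPARA and members outside this rule) were chosen after their values were seen. Alternatives were 3 other scalings, 2 other filters, DESeq2 1.42.0, limma 3.58.1's voom, a replicate block and leaving out each library. Leaving out members that share over 10% of exon bases or windows was added after the data were seen. A few genes are not reported here and are left out of the plots. Tables used pandas 2.3.3 in Python 3.11.15.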

Additional observations from a re-analysis of the deposited data

How the results depend on the processing

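The 6 higher members were 4 to 7, the 11 lower members 7 to 10, and the 8 export pumps called 5 to 8 when each library was left out in turn; the 7 lower members were found without PTPF replicate 1 and the 5 pumps without STATF replicate 1. Over these the calls among all genes were 2830 to 3808, against 3863. With other scalings, filters and tools the counts were 4 to 6 higher, 10 to 11 lower and 7 to 8 pumps. Of the 17 called members 11 passed under all 14 alternatives, 4 higher (ABCA1, ABCB1, ABCC9 and ABCF2) and 7 lower (among them ABCA2, ABCA3, ABCC2, ABCC3, ABCD3 and ABCG2), and none of the 17 changed direction. Without the 5 members that share over 10% of their sequence or position (ABCB6, ABCB9, ABCC6, ABCE1 and ABCF2), 4 were higher and 10 lower, and 7 pumps were called. This was a recount of the main calls with no new fit, so it does not test the effect of shared reads. Some members that did not pass changed sign when 1 library was left out. ABCC1 ranged from -0.11 to 0.01 and ABCC5 from -0.07 to 0.05, both highest without PTPF replicate 1. ABCD2 ranged from -0.13 to 0.08, ABCF3 from -0.09 to 0.02 and ABCG5 from -0.15 to 0.07. PTPRD, at 0.00, was at -0.06 with library totals, -0.0038 with limma-voom, -0.01 with no filter and -0.0032 with the replicate block. Without 1 library it ranged from -0.08 to 0.09. The cause of these changes was not tested. Same-numbered libraries correlated at 0.0347, 0.0578 and 0.000769 in their deviations, so the numbers were not taken to pair the libraries; with the replicate block 6 members were higher, 11 lower and 8 pumps called, with 4145 genes in all. ABCB11, with 23 to 53 counts per library, had an interval from 0.01 to 1.23.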
